A study of Mus musculus with 2 samples.

Results

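*Il2rb* encodes the β chain that the receptors for IL-2 and IL-15 share, and it was examined together with genes that are usually read in natural killer (NK) cells and cytotoxic lymphocytes: *Nkg7*, *Ncr1*, *Klrb1c*, *Klrd1*, *Gzma* and *Gzmb*. With *Ccl21a*, a chemokine of lymph node stroma that is not analysed here, 8 genes were named, and 7 were followed among the 18049 genes with values. They were chosen by measured values of these data: the *Il2rb* UMIs (unique molecular identifiers, 1 per captured mRNA molecule) of naive mice lay in few CD301b-lo cells. The place of *Il2rb* in the naive library is therefore a description, and none of the values below carries a test.

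The cells were live MHCII-hi CD11c+ B220- cells of B6 mice, sorted as migratory dendritic cells (DCs) of skin-draining lymph nodes and read by CITEseq, which counts mRNA and antibody barcodes in the same cell. The naive library held 3471 cells of unimmunized mice, and the papain library held 7596 cells of mice that received ovalbumin (OVA) plus papain, a protease allergen, in both rear footpads 1 day earlier. Each condition was 1 library, and the number of mice behind it is not given in the sources used here. The study's methods name popliteal nodes for immunized mice and pooled skin-draining nodes for naive mice, whereas the labels give the same nodes for both, so node site, library and immunization cannot be told apart. The authors' antibody classes were Langerhans cells (LCs), cDC1s and 3 grades of cDC2s by CD301b (CD301b-lo, CD301b-int and CD301b-hi, marked CD301b-, CD301bint and CD301b+ in the authors' annotation). A further 429 naive and 290 papain cells had no class and no antibody values, and they are kept apart throughout. The median depth was 13764 UMIs in naive and 14738 in papain cells, and 2 cell barcodes occurred in both libraries. Intervals in parentheses are 95% intervals for counting error only, exact Poisson for levels and exact Clopper-Pearson for shares, and variation from mouse to mouse or library to library is not in them. For levels and ratios, UMIs of the same cell are counted as independent. Where UMIs were packed into few cells, these intervals are therefore too narrow.

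IL-2Rβ pairs with the common γ chain (*Il2rg*) to bind IL-2 or IL-15, and the α chain CD25 (*Il2ra*) raises the affinity for IL-2. NK cells, memory and regulatory T cells and innate lymphoid cells carry it. NKp46 (*Ncr1*) and NK1.1 (*Klrb1c*) are activating receptors that define mouse NK cells, CD94 (*Klrd1*) forms pairs with NKG2 receptors, *Nkg7* encodes a membrane protein of cytotoxic granules, and granzymes A and B are proteases that such granules release.

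In the mouse assembly GRCm38.p6, *Il2rb* lies at chr15:78479256-78511621. *Klrb1c* (chr6:128778485-128788641) and *Klrd1* (chr6:129588092-129598775) share a chromosome, as do *Ncr1* (chr7:4337715-4345184) and *Nkg7* (chr7:43437138-43438246). The granzymes are apart, *Gzma* at chr13:113093824-113100981 and *Gzmb* at chr14:56258836-56262334. RefSeq promoter windows were at hand for 6 of the 8 genes, and the 250 bases before the start held the letters TGTGGT, the core of the sequence that RUNX factors bind, on either strand (ACCACA on the other) in 5 of them. The same letters stood in 14.2% of 27025 genes' windows of this length. The letters were chosen after these windows had been read, and a match is a description, not a binding site. *Ccl21a* was the window without them. The match nearest to the start is shown for each gene below because each of these 5 genes had most of its classed naive UMIs in the few cells with *Il2rb*. The stretches are printed 5′ to 3′ on the gene's strand with the matched letters in capitals.
Nkg7, chr7:43437025-43437090, plus strand: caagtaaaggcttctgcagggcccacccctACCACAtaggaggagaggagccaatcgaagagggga
Ncr1, chr7:4337644-4337709, plus strand: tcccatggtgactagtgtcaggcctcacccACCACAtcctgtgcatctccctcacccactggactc
Klrb1c, chr6:128788695-128788760, minus strand: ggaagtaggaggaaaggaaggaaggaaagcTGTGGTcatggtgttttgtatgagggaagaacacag
Gzma, chr13:113100996-113101061, minus strand: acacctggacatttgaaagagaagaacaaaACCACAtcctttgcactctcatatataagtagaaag
Gzmb, chr14:56262335-56262398, minus strand: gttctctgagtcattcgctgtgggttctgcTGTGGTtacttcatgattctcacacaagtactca

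The classes themselves rest on designed antibody barcodes. The 4 barcodes that separate cDC1s, cDC2s, the CD301b grades and LCs are given because the classes of the cells with *Il2rb* UMIs rest on these readings. In naive cDC1s with *Il2rb*, the medians of CD326, XCR1 and CD172a differed most from those of the other cDC1s. Antibodies to CD11b and CD24 are listed with the same barcode, and neither is used here.
XCR1: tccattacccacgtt
CD172a: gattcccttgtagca
CD301b: cttgccttgcgattt
CD326: acccgcgttagtatg

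Among the antibody classes of naive mice, *Il2rb* stood highest in CD301b-lo cDC2s and cDC1s, with similar levels when all cells of the 2 classes were counted. Without cells with T cell receptor complex UMIs, *Il2rb* was lower in cDC1s than in CD301b-lo cells. Its level, in UMIs per 1000000 summed UMIs (CPM), was 25 (21.9 to 28.5) in CD301b-lo cDC2s, from 231 UMIs in 33 of 658 cells. In cDC1s it was 24.8 (21.7 to 28.1), from 235 UMIs in 48 of 578 cells. The log2 ratio of these levels with 1 CPM added, CD301b-lo over cDC1, was 0.02, and the plain log2 ratio had an interval of -0.25 to 0.28. Without cells with a *Cd3e* or *Trac* UMI the levels were 18.0 CPM (15.3 to 21.1) in CD301b-lo cells and 5.49 CPM (3.99 to 7.37) in cDC1s. The plain log2 ratio was 1.71 (1.22 to 2.23). These levels rest on 155 UMIs in 20 of 620 CD301b-lo cells and 44 UMIs in 5 of 500 cDC1s. LCs followed at 4.70 CPM (3.04 to 6.94), CD301b-int at 4.45 (3.26 to 5.94) and CD301b-hi at 2.63 (1.77 to 3.75), 3 neighbours whose intervals overlapped. CD301b-lo stood above CD301b-hi by 2.84 on the log2 scale with 1 CPM added and by 3.25 (2.70 to 3.85) without. Outside mRNA cluster 1.7, a cluster of 50 cells by the authors' mRNA clustering, the former was 1.51. CD301b-lo cells outside this cluster stood at 3.10 CPM, so the high level of the class rests on the cluster. Of the 7 genes, 6 were at least 2-fold higher in CD301b-lo than in CD301b-hi cells in this comparison, against 5.4% of the 15472 genes with at least 10 UMIs, and *Gzmb* was the one that was not. Since the genes were chosen for this pattern, nothing is read from that count. The share of cells with an *Il2rb* UMI was 5.02% (3.48 to 6.97) in CD301b-lo cells, 8.31% (6.19 to 10.9) in cDC1s and 1.14% (0.370 to 2.63) in LCs, at median depths of 12751, 15806 and 10767 UMIs. After thinning each cell to 8392 UMIs the 3 shares were 3.89, 7.67 and 1.06%.

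**Figure D1:**
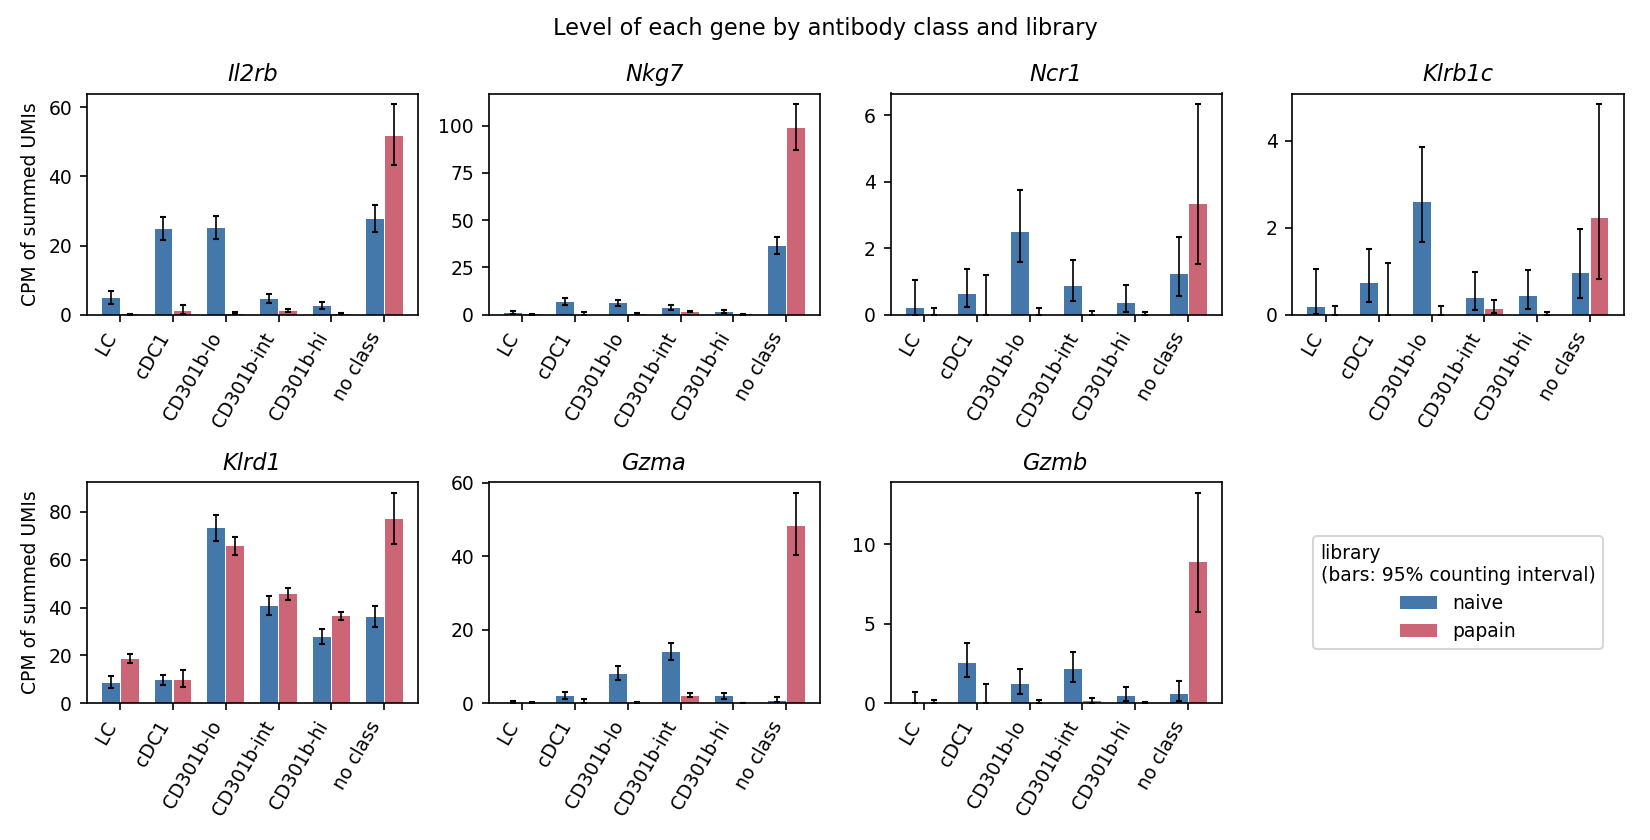
Level of each of the 7 genes (vertical axis, CPM of summed UMIs, a separate scale for each gene) by antibody class for the naive (blue) and papain (red) library, 1 library each. Lines are exact 95% Poisson intervals of counting error. With all cells counted, naive *Il2rb* is similar in cDC1s and CD301b-lo cells, and *Klrd1* is the only one of the 7 with similar levels in both libraries across the cDC2 classes.

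The *Il2rb* UMIs were packed into few cells. Of 567 *Il2rb* UMIs in the 3042 classed naive cells, 421 (74.3%) lay in 43 cells with at least 5 UMIs each. A CD301b-lo cell with *Il2rb* had a median of 7 UMIs and at most 22, and a cDC1 had a median of 4 and at most 18. By contrast the median was 1 UMI in CD301b-int and in CD301b-hi cells, with 1 cell of 12 UMIs and 1 of 13. The lowest class, papain LCs, had 1 UMI in 881 cells at a median depth of 18290 UMIs, which sets how little *Il2rb* was read where it was lowest.

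By the authors' mRNA clusters of cDC2s, most of this signal sat in cluster 1.7, a group of 50 naive cells. It held 38 of the 60 naive cDC2s with *Il2rb* and 261 of their 307 UMIs, at a level of 287.5 CPM. The cluster comprised 34 CD301b-lo, 12 CD301b-int and 4 CD301b-hi cells, and its *Il2rb* levels by class were 389, 112 and 259 CPM. Outside it, CD301b-lo cells had 27 *Il2rb* UMIs in 7 of 624 cells (3.10 CPM), of which 24 were in 4 cells of cluster 1.5. CD301b-int and CD301b-hi cells outside it stood at 1.39 and 0.442 CPM. Cluster 1.7 also carried *Nkg7* at 102 CPM in 24 cells and *Gzma* at 224 CPM in 4 cells. The DC genes *Cd74* (4842 CPM) and *Ccr7* (2754 CPM) were read in it beside *Thy1* (119 CPM), *Cd3e* (122 CPM), *Rora* (268 CPM) and *Gata3* (85.9 CPM), which T cells and innate lymphoid cells express, and 28 of its 50 cells had a *Cd3e* or *Trac* UMI. In the other naive clusters 2.03 to 5.45% of cells had one. No papain cluster resembled it in *Il2rb*: the highest was 2.9, with 9 UMIs and 3.33 CPM.

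**Figure D2:**
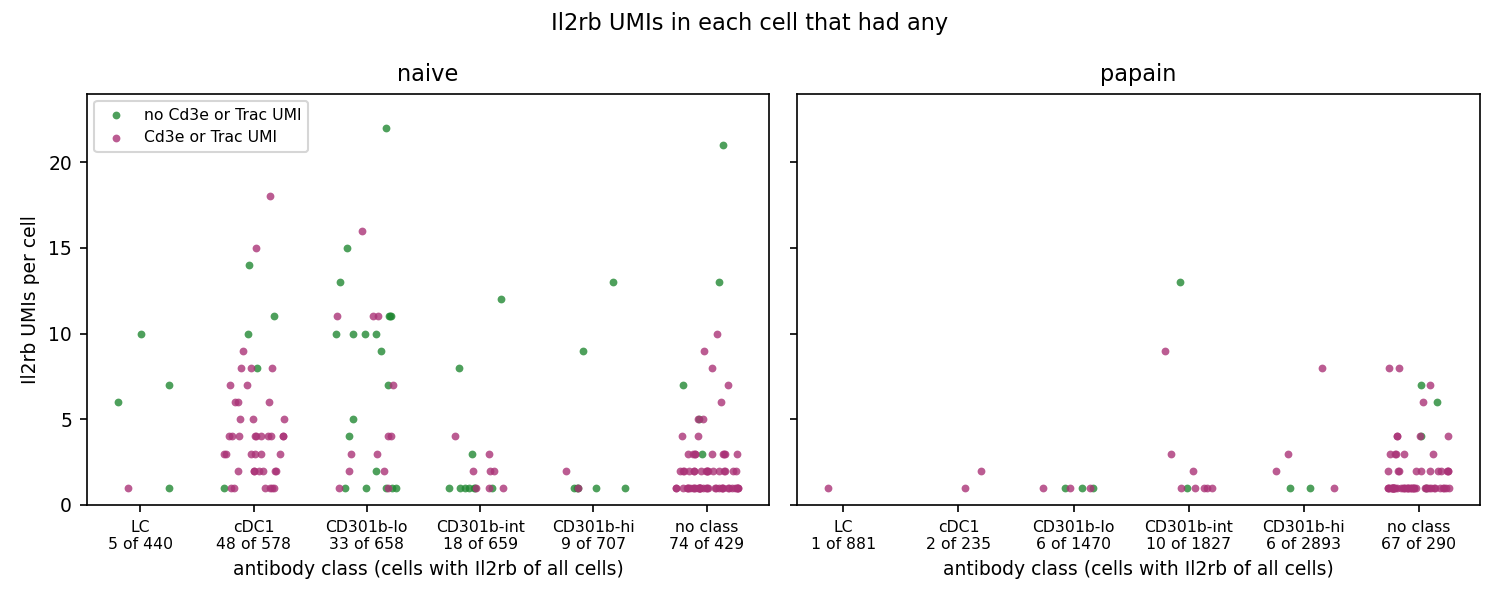
*Il2rb* UMIs (vertical axis) in every cell that had at least 1, by antibody class in the naive (left) and papain (right) library, with horizontal scatter for legibility only. Colour marks whether the cell also had a *Cd3e* or *Trac* UMI, and the counts under each class are cells with *Il2rb* of all cells. Naive cDC1s with *Il2rb* nearly all had a T cell receptor complex UMI, and those in the CD301b-lo class mostly did not.

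T cell receptor complex mRNA divided the naive cells with *Il2rb* by class. UMIs of *Cd3e* or *Trac* were seen in 43 of the 48 cDC1s with *Il2rb* (89.6%), but in 13 of the 33 CD301b-lo cells (39.4%), 8 of 18 CD301b-int cells, 2 of 9 CD301b-hi cells and 1 of 5 LCs. Among cells of the same classes without *Il2rb*, the share was 6.60% in cDC1s and 4% in CD301b-lo cells. Such cells held 191 of the 235 *Il2rb* UMIs of naive cDC1s and 76 of the 231 of CD301b-lo cells. Cells with *Il2rb* were also deeper than the rest, with medians of 19574 against 13874 UMIs in the naive library and 20903 against 14937 in the papain library. The part of droplets with 2 cells in these values was not tested.

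MHC class II mRNA was low in many of the same cells. The summed mRNA of *Cd74*, *H2-Aa*, *H2-Ab1* and *H2-Eb1* in naive cDC1s with *Il2rb* had a median of 17.4% of the median over classed cells, against 87.7% in cDC1s without, and 21 of the 48 cells lay under 10%. In CD301b-lo cells the medians were 39.3% and 161%. In CD301b-int cells the medians with and without *Il2rb* were 128% and 116%, and in CD301b-hi cells 154% and 162%.

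The antibody readings of cells with *Il2rb* differed from their classes as well. Values are on a natural log scale relative to the other antibodies of the cell. Naive cDC1s with *Il2rb* had a median XCR1 value of 0.380 against 1.31 in the other cDC1s, and 4.17% of them exceeded the latter. Their CD172a, the cDC2 marker, was 1.03 against 0.115, above the other cDC1s' median in 93.8% of cells. For most of these cells both defining antibodies thus departed from the rest of the class. CD301b-lo, CD301b-int and CD301b-hi cells without *Il2rb* had median XCR1 of 0.138, 0.130 and 0.111 and CD172a of 1.59, 1.66 and 1.75. By both medians, cDC1s with *Il2rb* therefore lay between the other cDC1s and the cDC2s. Their CD326 was 0.745 against 1.7 in the other cDC1s, and their MHC II 4.19 against 4.77. CD103, an integrin of cDC1s and of tissue lymphocytes, was higher at 1.86 against 1.26. In CD301b-lo cells with *Il2rb*, CD103 was likewise higher (0.456 against 0.184), MHC II was lower (4.64 against 5.45) and CD11c was lower (1.62 against 2.39). CD172a (1.32 against 1.59) and CD301b (0.179 against 0.302) were lower too. The median of the other CD301b-lo cells was exceeded by 18.2% of these cells for CD172a, 21.2% for CD301b and 24.2% for CD11c.

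**Figure D3:**
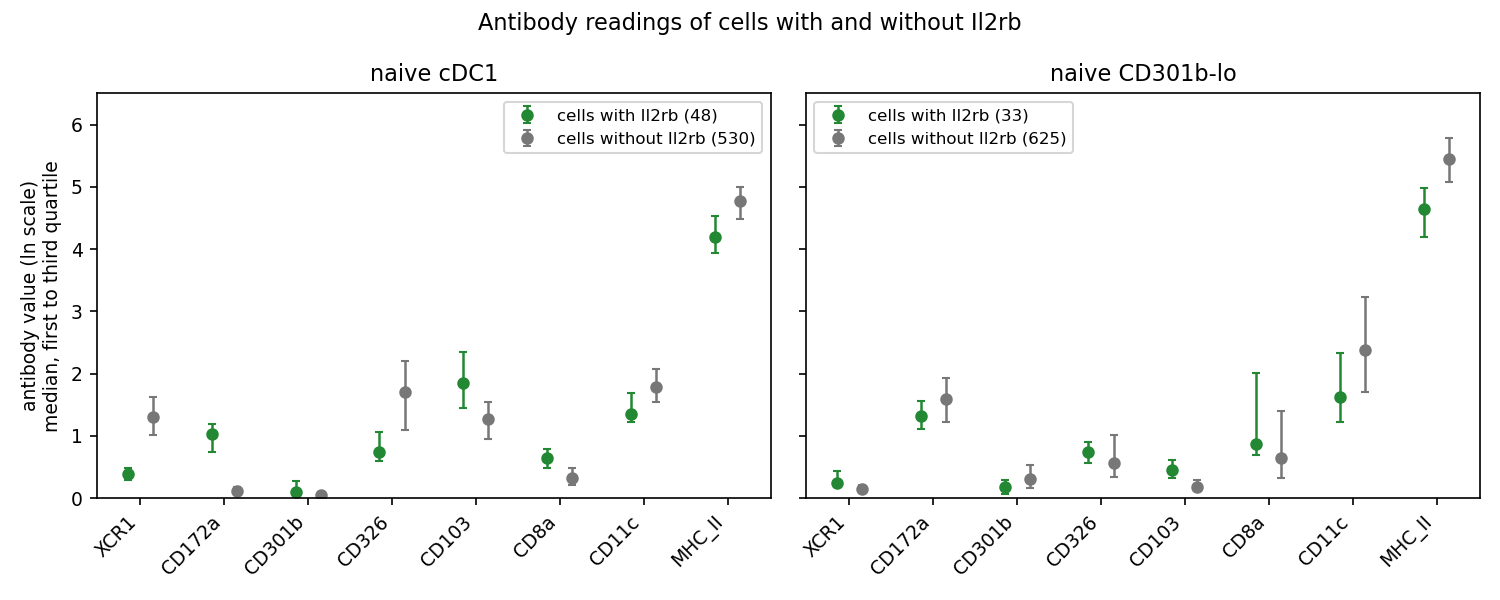
Antibody values (vertical axis, natural log scale) of naive cDC1s (left) and CD301b-lo cDC2s (right) with (green) and without (grey) an *Il2rb* UMI. Points are medians over cells and lines run from the first to the third quartile. In cDC1s with *Il2rb*, XCR1 is lower and CD172a is higher than in cDC1s without.

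Of the 567 *Il2rb* UMIs in classed naive cells, 426 (75.1%) lay in the 74 cells that also had a UMI of at least 1 of the 6 other genes. Leaving out *Klrd1*, which was widespread, the figures were 385 UMIs (67.9%) in 58 cells. UMIs of 2 or more of the 7 genes were found in 78 classed naive cells (2.56%, 2.03 to 3.19) and in 23 classed papain cells (0.315%, 0.200 to 0.472). Without cells that had a *Cd3e* or *Trac* UMI, these counts were 33 and 10. Shares below compare the 113 classed naive cells with *Il2rb* with the 2929 without. In that comparison 8.95% of 17427 genes were at least 2-fold higher in cells with *Il2rb*, and 5 of the 6 other genes were, all but *Klrd1*.

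*Nkg7* was present in 41 cells with *Il2rb* (36.3%, 27.4 to 45.9) and in 13 without (0.444%). All 43 classed naive *Ncr1* UMIs lay in 20 cells with *Il2rb*, and the 2929 other cells had none, which allows 3 UMIs. *Klrb1c* was read in 20 cells with *Il2rb* and in 2 without. Those 2 receptor genes stood highest in CD301b-lo cells among the classes, *Ncr1* at 2.49 CPM (1.58 to 3.74) and *Klrb1c* at 2.60 CPM (1.67 to 3.87), and at 0.632 and 0.737 CPM in cDC1s. *Nkg7* was at 6.18 CPM (4.68 to 8.0) in CD301b-lo cells and 6.74 CPM (5.19 to 8.61) in cDC1s, and without cells with a *Cd3e* or *Trac* UMI at 4.30 CPM (3.03 to 5.93) and 2.12 CPM (1.24 to 3.39).

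*Gzmb* was found in 17 cells with *Il2rb* and in 1 without, and was highest in cDC1s at 2.53 CPM (1.62 to 3.76), where 11 cells had it. Without cells with a *Cd3e* or *Trac* UMI it had no UMI in cDC1s, and stood at 1.16 CPM (0.557 to 2.14) in CD301b-lo and 1.13 CPM (0.566 to 2.03) in CD301b-int cells. *Gzma* behaved differently, as very many UMIs in very few cells. Of 256 UMIs in classed naive cells, 252 came from 6 cells with 17 to 74 UMIs each, and the other 4 cells had 1 UMI each. All 6 had *Il2rb*, *Nkg7* and the pore-forming protein gene *Prf1*, 5 had *Ncr1*, 5 had *Eomes* or *Tbx21*, the T-box factors of NK cells, and none had a *Cd3e* or *Trac* UMI. In each class with *Gzma*, its level therefore rests on 1 to 4 cells, and the 74 UMIs of the CD301b-lo class came from 1 cell, which counting intervals do not cover. In the naive library 3 classed cells had UMIs of all 7 genes, 1 of each cDC2 class and all in cluster 1.7. They had 21378, 27340 and 28526 UMIs in total, with 90, 42 and 102 UMIs of *Cd74* and 62, 203 and 83 of *Ccr7*, so NK and DC genes were read under the same cell barcode.

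**Figure D4:**
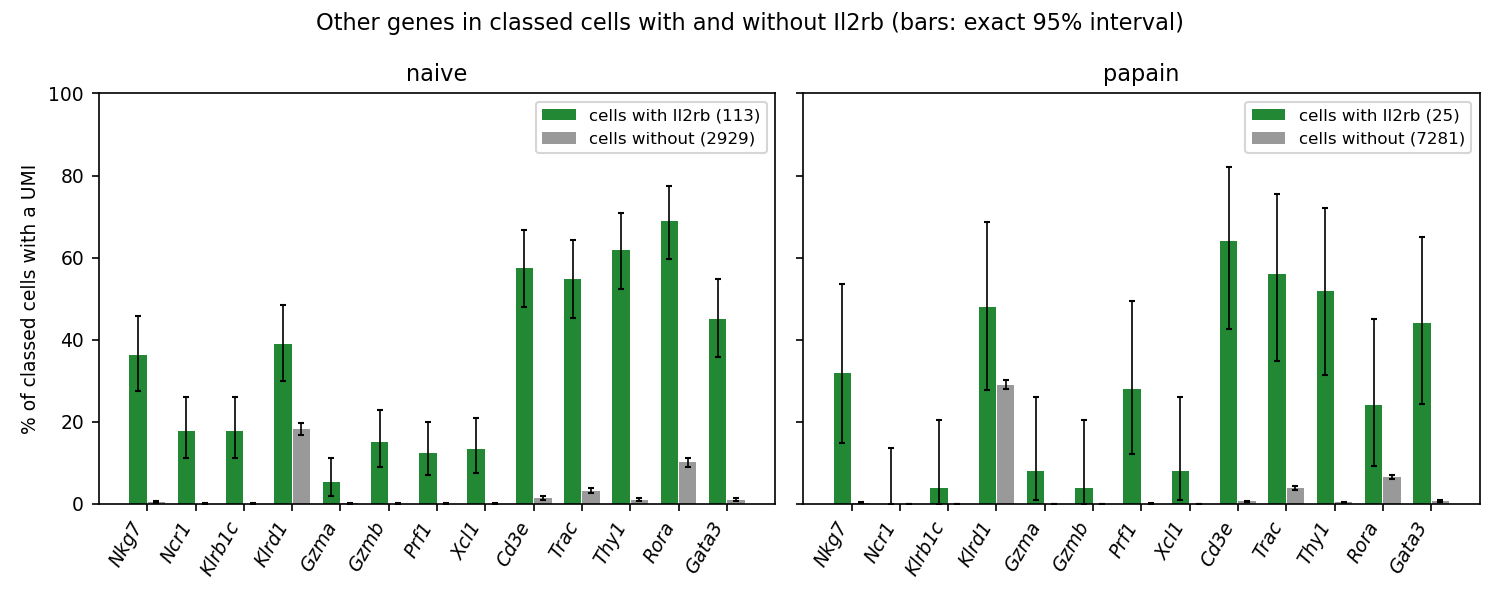
Share of classed cells with a UMI of each gene (vertical axis, percent) among cells with (green) and without (grey) *Il2rb*, in the naive (left) and papain (right) library. Lines are exact 95% intervals; for *Klrd1* the grey bar is also high, and *Ncr1* has no UMI in classed papain cells.

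The T cell receptor complex also split these genes. Among naive cells with *Il2rb*, 67 had a *Cd3e* or *Trac* UMI and 46 did not, at median depths of 20565 and 17671 UMIs. *Ncr1* was found in 3 of the former (4.48%) and 17 of the latter (37.0%), and *Klrb1c* in 7 (10.4%) and 13 (28.3%). *Gzma* had 0 and 252 UMIs. By the share of cells *Nkg7* did not follow this split, with 24 (35.8%) and 17 (37.0%) cells, nor did *Gzmb* with 12 and 5 cells. By level, *Nkg7* was at 42.1 and 108 CPM, higher without *Cd3e* or *Trac*, and *Gzmb* at 24.4 and 28.9 CPM. *Cd3d* and *Cd3g*, which had no part in the split, were each found in 64 of the 67 and in 0 of the 46. *Thy1* (59 and 11 cells), the γ chain constant gene *Tcrg-C1* (26 and 3) and the chemokine receptor *Cxcr6* (46 and 16) were more frequent beside *Cd3e* or *Trac*, while *Tbx21* (3 and 9) and *Eomes* (1 and 5) were more frequent without. *Rora*, which innate lymphoid cells and some T cells express, was found in 53 and 25 cells.

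*Klrd1* was the exception among the 7 genes. Its UMIs were found in 578 of the 3042 classed naive cells, and 9.05% of them lay in cells with *Il2rb*. It was graded by CD301b in both libraries. The naive levels were 73.0 CPM (67.6 to 78.8) in CD301b-lo, 40.5 (36.7 to 44.6) in CD301b-int and 27.8 (24.8 to 31.0) in CD301b-hi cells, and no neighbours overlapped. The papain levels were 65.8 (62.1 to 69.6), 45.5 (43.1 to 48.0) and 36.5 CPM (34.8 to 38.2). cDC1s were low in both, at 9.69 and 9.76 CPM. After thinning, the share of cells with *Klrd1* kept this order, at 24.8, 19 and 14.9% in naive and 28.6, 22.3 and 18.8% in papain cells. Among the classes, LCs differed most between libraries, at 8.47 CPM (6.17 to 11.3) in naive and 18.5 (16.6 to 20.6) in papain cells, a difference of over 2-fold, which 3.32% of genes reached in that class. Among mRNA clusters, *Klrd1* was highest in naive cluster 1.5 (106 CPM, 43.9% of cells) and in papain cluster 2.4 (79.0 CPM), and neither held a high share of cells with *Cd3e* or *Trac* (2.03 and 3.13%). Cells with *Il2rb* still had more of it, at 62.1 against 32.3 CPM in the naive and 72.6 against 39.5 CPM in the papain library, under the 2-fold mark in both.

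In the papain library *Il2rb* was scarce in classed cells. The 7306 classed papain cells had 59 *Il2rb* UMIs in 25 cells. In CD301b-lo cells 6 UMIs lay in 6 of 1470 cells, or 0.332 CPM (0.122 to 0.723), and cDC1s had 0.976 CPM from 3 UMIs. The log2 ratio of papain over naive in CD301b-lo cells was -4.29 with 1 CPM added and -6.23 (-7.70 to -5.09) without. Outside naive cluster 1.7 the former was -1.62. The other classes were lower as well, by plain log2 ratios of -6.43 (-11.8 to -3.82) in LCs, -4.66 (-6.95 to -3.10) in cDC1s, -1.99 (-2.68 to -1.31) in CD301b-int and -3.05 (-4.03 to -2.13) in CD301b-hi cells. With 1 CPM added, at least 2-fold lower were 1 of 7 genes in LCs (*Il2rb*, where 3.29% of all genes with at least 10 UMIs were), 4 in cDC1s (9.24%), 3 in CD301b-int (4.25%) and 3 in CD301b-hi cells (3.15%), where 5, 2, 2 and 3 of the 7 had under 10 UMIs in both libraries together. Nothing is read from these counts either, since the genes were chosen on naive values and the 4 of cDC1s reached 10 UMIs only with the naive cells. *Gzma* in cDC1s was at least 1.94-fold lower against a floor of 3 UMIs over the class. Within the papain library CD301b-lo and CD301b-hi cells did not separate, at 0.332 and 0.316 CPM with a plain log2 ratio of 0.07 (-1.57 to 1.5). The CD301b-int class was the highest of the papain cDC2s, at 1.12 CPM (0.773 to 1.58), and 13 of its 33 UMIs came from 1 cell.

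In CD301b-lo cells 6 of the 7 genes were at least 2-fold lower in the papain library with 1 CPM added, where 6.59% of the 16105 genes with at least 10 UMIs were. Nothing is read from that count, since the genes were chosen for their naive CD301b-lo UMIs and 5 of the 6 reached 10 UMIs only with the naive cells. *Nkg7* went from 6.18 to 0.554 CPM (0.266 to 1.02). *Ncr1*, *Klrb1c*, *Gzma* and *Gzmb* had no UMI in the 1470 papain cells of the class. Against a floor of 3 UMIs over the class, *Ncr1* was at least 15-fold, *Klrb1c* at least 15.7-fold, *Gzma* at least 48.3-fold and *Gzmb* at least 7.17-fold lower. The *Gzma* bound rests on a single naive cell. *Klrd1* was the gene that did not pass, with a plain log2 ratio of -0.15 (-0.29 to -0.01). Among the few papain cells with *Il2rb*, *Nkg7* was found in 8 of 25 (32.0%) against 19 of 7281 (0.261%), while *Ncr1* was found in 0 of 7306 classed cells, which by a limit of 3 counts allows up to 0.0411% of cells with an *Ncr1* UMI and sets no limit on cells that express it. In the comparison of classed papain cells with and without *Il2rb*, 12.4% of 17871 genes were at least 2-fold higher in the former. A single papain CD301b-int cell stood out, with 13 *Il2rb*, 18 *Nkg7*, 4 *Klrb1c*, 59 *Gzma* and 4 *Gzmb* UMIs and no *Cd3e* or *Trac* UMI. *Cd3e* or *Trac* was found in 18 of the 25 cells.

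In cells without a class the papain library was the higher one. *Il2rb* was found in 74 of 429 such naive cells (17.2%, 13.8 to 21.2) and 67 of 290 papain cells (23.1%, 18.4 to 28.4), at 27.7 CPM (24 to 31.7) and 51.6 CPM (43.4 to 60.9). *Nkg7* was at 36.3 CPM in naive and 98.8 CPM in papain cells, and *Klrd1* at 35.9 and 76.9 CPM. *Gzma* was at 0.685 and 48.3 CPM, but 82 of its 130 papain UMIs came from 1 cell. The same cell, with 6271 UMIs in total, held 15 of the 24 papain *Gzmb* UMIs. It had UMIs of all 7 genes and no *Cd3e* or *Trac* UMI. Of the 7 genes, 4 were at least 2-fold higher in unclassed papain than unclassed naive cells, against 4.99% of 14047 genes. Most of these cells had T cell mRNA: a *Cd3e* or *Trac* UMI was present in 55.2% of the naive and 83.1% of the papain cells, and in 69 of the 74 and 63 of the 67 with *Il2rb*. Without such cells *Il2rb* was at 9.84 CPM (7.28 to 13.0) in the naive library, from 49 UMIs in 5 of 192 unclassed cells. In the papain library it was at 21.9 CPM (13.0 to 34.6), from 18 UMIs in 4 of 49 unclassed cells. Over all 74 naive and 67 papain unclassed cells with *Il2rb*, the median MHC class II mRNA was 4.59 and 3.03% of the classed median. Unclassed cells were shallow, with 181 of the 429 naive and 210 of the 290 papain cells under the 8392 UMIs used for thinning.

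The partners of the β chain were present much more broadly. *Il2ra* was read at 62.4 CPM in naive CD301b-lo, 62.3 in CD301b-int and 52.6 in CD301b-hi cells, and at 149, 132 and 118 CPM after papain, so that the α chain stood higher in the library in which the β chain stood lower. The plain log2 ratios were 1.26 (1.13 to 1.39), 1.09 (0.965 to 1.21) and 1.16 (1.04 to 1.28). *Il2rg* was at 108 CPM in naive and 102 CPM in papain CD301b-lo cells, and at 81.3 and 90.1 CPM in CD301b-hi cells. *Il15* and *Il15ra*, the ligand and the chain that presents it, were highest in cDC1s, at 178 and 230 CPM in naive and 197 and 274 CPM in papain cells.

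Of the 24 genes listed for the IL-2 receptor pathway, 7 were at least 2-fold higher in classed naive cells with *Il2rb* than in those without, *Il2rb* itself among them by construction, where 8.95% of all genes were. None was 2-fold lower, where 2.73% of all genes were. The median log2 ratio of the list was 0.30, beside 0.08 over all genes with at least 10 UMIs. The receptor chains *Il2ra* (121 against 45.8 CPM), *Il2rg* (176 against 77.5 CPM) and *Il7r* (518 against 109 CPM) were higher. So were *Cish*, an inhibitor induced through STAT5 (47.9 against 3.33 CPM), the survival gene *Bcl2* (69.2 against 2.02 CPM) and the kinase gene *Lck* (64.7 against 1.61 CPM). The genes with most UMIs in these cells were *Il7r*, *Socs2* and *Pik3r1*, and the last 2 had fewer CPM than in other cells, 351 against 514 and 318 against 467. *Stat5a* was at 74.9 against 73.2 CPM. In the papain library 6 of 24 were higher and 2 lower (12.4 and 8.76% of all genes), and *Il2ra* did not separate the cells (131 against 121 CPM).

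Marker lists of lymphocytes were higher in cells with *Il2rb*. In classed naive cells with *Il2rb*, 16 of 17 T cell genes, 9 of 11 innate lymphoid genes and 17 of 22 further NK genes were at least 2-fold higher than in other classed cells, where 8.95% of all genes were, with median log2 ratios of 4.53, 3.32 and 2.72. The summed T list stood at 1692 against 113 CPM and the innate lymphoid list at 1356 against 144 CPM, and no gene of the 3 lists was at 0 in cells with *Il2rb*. The T genes with most UMIs were *Trbc2*, *Cd3g* and *Cd3d*, at 297, 213 and 176 CPM. Of the innate lymphoid list they were *Il7r*, *Rora* (326 against 11.5 CPM) and *Thy1* (159 against 1.93 CPM). *Il7r* is also in the pathway list and *Lck* also in the T list. The genes of the NK list with most UMIs were *Ccl5*, *Txk* and *Klrk1*, and the summed NK list was lower (6463 against 11706 CPM) because *Ccl5* makes up most of it and was abundant in the other DCs. The chemokine gene *Xcl1*, by contrast, had 143 UMIs in 15 of these cells and none in the others.

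Of the B cell list, 0 of 8 genes were at least 2-fold higher in naive cells with *Il2rb*, and *Ighm* was at 40.8 against 21.0 CPM. In the papain library 3 of 7 were, where 12.4% of all genes were, with *Ighm* at 78.1 against 6.26 CPM. The median log2 ratio of the 7 was -0.13, and 5 of the 8 listed genes were at 0 in papain cells with *Il2rb*. Of the stromal list 2 of 7 were higher in the naive library, *Pecam1* and *Cxcl13*, and *Dcn*, *Lyve1* and *Flt4* were at 0. Of the plasmacytoid DC list 1 of 5 was higher, *Ccr9*, with *Ly6d* at 0. The 9 DC genes were all present, with a median log2 ratio of -0.74 and *Cd74* at 4499 against 7526 CPM, as were the 2 LC, 3 cDC1 and 3 cDC2 genes, with medians of -0.90, 0.19 and -0.37. Among papain genes with at least 10 UMIs, 15 of 15 T, 8 of 10 innate lymphoid and 9 of 18 NK genes were at least 2-fold higher, where 12.4% of all genes were, with 2, 1 and 4 genes of the lists at 0 in cells with *Il2rb*. The part of other cell types in the *Il2rb* values was not tested.

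Over all 3471 naive cells, non-member genes whose log2 values were among those most like *Il2rb* by Pearson's r were *Cxcr6* (0.58), *F2r* (0.57), *Thy1* (0.55), *Cd7* (0.53), *Trbc2* (0.52), *Skap1* (0.52), *Ikzf3* (0.51), *Sytl3* (0.51) and *Ikzf2* (0.50), among 17587 genes read in at least 10 cells. *Nkg7* (0.52) was 7th when members were ranked with them, *Ncr1* (0.40) 56th, *Klrb1c* (0.39) 64th and *Klrd1* (0.17) 542nd. Over the 7596 papain cells *Nkg7* (0.55) came before all others, and *Ms4a4b* (0.50), *Ctsw* (0.47), *Cd2* (0.47), *Klk8* (0.47), *Cd3g* (0.47), *Cd3d* (0.45), *Cd3e* (0.45), *Trbc2* (0.45), *Lck* (0.44) and *Gm26732* (0.44) followed. Within classed cells alone, *Cxcr6* (0.69) and *Skap1* (0.69) were among the leading genes in the naive library and *Zap70* (0.51), *Bcl11b* (0.50) and *Ms4a4b* (0.49) in the papain library. These correlations are over cells of 1 library that share a scale and depth, and cells are not replicates.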

How the data were processed

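The authors sequenced 10x 3′ v3 CITEseq libraries and, per the labels, processed them with Cell Ranger 3.0.1, the mm10 build and Partek. Gene expression was deposited by the authors as log2(CPM + 1). Each cell's smallest step gave the CPM of a single UMI, and with it 100% of entries at or under 50 UMIs came out whole to within 0.02. The deposited numbers of expressed genes and of antibody tags are counts. The expression total deposited for each cell adds up log2 values and is treated as a score, and the deposited mitochondrial percent is a share of it, so neither was used. The antibody values the authors deposited are on a natural log scale: ln(1 + (count + 1) / the cell's geometric mean).

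UMIs were summed per class, cluster and library and scaled to 1000000 (Python 3.11.15, numpy 2.4.6, scipy 1.17.1, pandas 2.3.3). The log2 ratios have 1 CPM added unless called plain, which have none. The plain ratio's interval comes from the exact binomial split of the UMIs, and genes with at least 10 UMIs count toward the share past 2-fold. Cells were not filtered, and no doublet caller was run. Thinned shares are expected values at 8392 UMIs, the 10th percentile of classed cells, with shallower cells left out. The ratio, interval, correlation and thinning were tested on simulated data. For the ratio and interval, the simulated class sums were independent Poisson draws, so UMIs packed into few cells were not covered. Named were the members, the 10 genes most like *Il2rb* and, of each marker list, the 3 genes with most UMIs and those at 0; other list genes were named after their values were seen, and some genes under this rule are not reported here. The members and lists were chosen with earlier results of these data known. 3′ reads of close relatives such as the *Klrb1* genes and the granzymes may be split uncertainly by the counting. With 1 library per condition there are no replicates, no p-value is given, and depth was 2682 to 57378 UMIs per cell.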

Additional observations from a re-analysis of the deposited data

How the results depend on the processing

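No paired analysis was possible because each condition is 1 library, and for the same reason no replicate could be left out. The *Il2rb* level in naive CD301b-lo cells, 25 CPM, was 18.0 without cells with a *Cd3e* or *Trac* UMI, 19.5 as the mean over cells deep enough for thinning, and 3.10 outside mRNA cluster 1.7, an alternative added after seeing the data. The log2 ratio of CD301b-lo over CD301b-hi cells in the naive library, 2.84, was 1.47 with 10 CPM added and 1.51 outside cluster 1.7. That of papain over naive CD301b-lo cells, -4.29, was -1.76 with 10 CPM added and -1.62 outside cluster 1.7. The log2 ratio of *Il2rb* in naive CD301b-lo cells over cDC1s, 0.02, was 1.55 without *Cd3e* or *Trac* cells, also added after seeing the data. None of these *Il2rb* log2 ratios changed sign in the alternatives run. For *Nkg7* and *Gzmb*, the order of naive CD301b-lo cells and cDC1s did change without *Cd3e* or *Trac* cells. The share of *Il2rb* UMIs beside another member, 75.1%, was 82.9% without *Cd3e* or *Trac* cells, 71.3% without the cell with most *Il2rb* UMIs of each class, 62.6% when 2 UMIs were asked, and 67.9% without *Klrd1*. The naive count of cells with 2 or more members, 78, was 41 with 2 UMIs of each and 33 without *Cd3e* or *Trac* cells. The papain count, 23, was 7, 10 and, without *Klrd1*, 8. Leaving out *Cd3e* or *Trac* cells moved 18 of 72 levels of the 6 other members by class out of their counting interval, 10 of them in cells without a class. Leaving out 60 naive and 27 papain cells with under 500 genes or at least 10% mitochondrial UMIs moved none of the *Il2rb* values it was tried on. The reasons for these moves were not tested. Shares near 1 UMI per cell are limited by depth.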

Other observations

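Other killer cell lectin-like receptor genes were read in DCs without *Il2rb*, as *Klrd1* was. *Klrk1*, which encodes the receptor NKG2D, was at 32.8 CPM (29.2 to 36.7) in naive CD301b-lo, 27.8 (24.6 to 31.2) in CD301b-int and 19.4 (17 to 22.2) in CD301b-hi cells. In the papain library it stood higher in each, at 84.5 (80.3 to 88.8), 59.7 (57.0 to 62.6) and 46.8 CPM (44.9 to 48.7), in the same order of classes. *Klri2* went from 9.81 (8.08 to 11.8) to 15.8 CPM (14.8 to 17) in CD301b-hi cells. *Klrc1* and *Klrc2*, partners of CD94, were scarce in cDC2s, at 0.541 and 1.73 CPM in naive CD301b-lo cells and 0.0554 and 0.665 CPM after papain, and in LCs they went from 0 and 0.753 CPM to 1.47 and 3.32 CPM. In classed naive cells, *Klrc1* had 13 UMIs in cells with *Il2rb* and 0 in the others, and *Klrc2* had 41 and 18.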
